A study of Oryza sativa with 16 samples.

Results

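The MADS-box genes of rice (Oryza sativa) were followed in whole seeds of 2 japonica cultivars on Affymetrix arrays. A gene was a member when its RefSeq symbol or synonym was MADS followed by a number, and 31 of the 17905 genes on the arrays met this rule, through 39 of 57381 probe sets. Each gene was read from its probe set of highest mean signal. The tested probe sets were the 34331 whose mean lay above the 40th percentile, and 23 of the 31 MADS-box genes were among them. There were 16 arrays in 8 conditions, with 2 replicates per condition. HF 4D-2DC and HF 4D were seeds of Hanfeng (HF, a cultivar tolerant of low temperature) after 2 days at 14 °C from 4 days after fertilization (DAF), and at 4 DAF at normal temperature. ZH 4D-2DC and ZH 10D-2DC were seeds of Zhonghua 11 (ZH, a sensitive cultivar) after 2 days at 14 °C from 4 DAF and from 10 DAF. Seeds of ZH at normal temperature were taken at 4 DAF (ZH 4D), 6 DAF (ZH 6D), 10 DAF (ZH 10D) and 12 DAF (ZH 12D). Day and night temperatures were otherwise 28 °C and 22 °C, none of the plants was a mutant or a transgenic line, and no array of HF at 6 DAF was used here. The labels call the replicates biological without saying that they came from separate plants, so p-values measure the spread between these samples.

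MADS-box proteins are transcription factors that bind CArG boxes in DNA as dimers and, in the plant MIKC type, join into tetramers. Their clades divide the work of flower and ovule development. AG and STK genes specify stamens, carpels and ovules, AP3/PI genes specify lodicules and stamens, and SEP genes are the partners that hold the tetramers together. AGL6 genes act beside the SEP genes, and Bsister genes act in the maternal tissues of the ovule and young seed. AP1/FUL, SVP and SOC1 genes act mainly before the flower forms, in flowering time and meristem fate, whereas AGL17 and AGL12 genes are best known from roots. No protein or promoter sequence is shown, because none was used here.

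Values were compared as log2(signal + 16), and every level or difference below is on this scale unless a p-value. The 8 MADS-box genes of highest mean over the 16 arrays came from 5 clades. MADS8, a SEP gene, averaged 13.30 and was at 13.96 to 14.42 on the 8 arrays of replicate 2, against 11.61 to 15.09 on the 8 arrays of replicate 1. MADS22, an SVP gene of meristem determinacy, averaged 12.89. MADS58 and MADS7, an AG gene of carpel development and a SEP gene, averaged 11.98 and 11.85. MADS29, the Bsister gene needed for the breakdown of the nucellus, averaged 10.85. MADS21 and MADS13, the ovule identity genes, averaged 10.15 and 9.40, and MADS2, a PI gene of lodicules and stamens, averaged 9.94. Each of these values comes from another probe set, and their order is not an order of transcript amounts. As a check of the labelled tissue, WX, the granule-bound starch synthase of endosperm, averaged 15.19. The study names the material as whole seed, and the sources used here do not say whether the hulls (lemma and palea) were removed. In such mixed tissue fewer cells of a type and less RNA per cell cannot be told apart.

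The 8 genes below the filter were MADS26, MADS34, MADS33, MADS23, MADS25, MADS50, MADS30 and MADS20. Their means were 4.83 to 5.61, and their single values ran from 4.05 to 8.54. The filter stood at 5.94, with MADS15 at 6.37 just inside it and MADS26 at 5.61 just outside. By clade, 4 of 4 AG and STK genes, 4 of 5 SEP genes, 2 of 2 AGL6 genes and 3 of 3 AP3/PI genes were tested. So were 3 of 3 SVP genes, 3 of 4 AP1/FUL genes, 1 of 2 Bsister genes, 1 of 2 SOC1 genes, 2 of 4 AGL17 genes and 0 of 2 AGL12 genes. No type I or MIKC* gene was found by the rule. In the RefSeq gene order, MADS13 lies next to MADS33 and MADS14 next to MADS34, and in each pair the first was tested and the second was below the filter. The probe sets of MADS22, MADS15 and MADS30 are of a kind that can also bind related transcripts, as is that of MADS14, so their signals may be shared.

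The MADS-box genes differed between the 2 replicate numbers by more than in any comparison of conditions described below. In a limma fit with a term for each condition and one for the replicate number, 13 of the 23 genes were higher on replicate 2 and 0 were lower at an adjusted p under 0.05 (10 genes did not pass). Over all tested probe sets 12.3% were higher and 21.1% lower. The median difference was 1.81 for the 23 genes and -0.22 for all probe sets. After quantile normalization 13 genes were again higher and 0 lower, against 14.7% and 9.56% of all probe sets, with medians of 1.70 and 0.09.

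The genes of flower and ovule identity made up most of the 13. MADS13 was at 9.84 to 12.54 on replicate 2, with a median of 11.52, against 5.92 to 9.33 on replicate 1, with a median of 7.31. The 2 sets of 8 arrays did not overlap, and MADS13 was higher on replicate 2 by 4.04 (SE 0.36, adjusted p = 6.21e-05, limma), in 8 of 8 conditions. All 4 AG and STK genes passed, with differences of 2.09 for MADS3, the stamen and carpel identity gene, to 4.04 for MADS13. All 4 tested SEP genes passed, with 1.82 for MADS8, 1.95 for MADS5, 3.19 for MADS1, which specifies the lemma and palea, and 3.48 for MADS7. Both AGL6 genes passed, MADS6 with 3.38 and MADS17 with 1.44, and so did the Bsister gene MADS29 with 2.67 (SE 0.34, adjusted p = 3.39e-04, limma). Of the 3 AP3/PI genes MADS2 passed with 2.04, and MADS18, an AP1/FUL gene, passed with 1.81. Of the clades that act mainly before the flower or in other organs, 1 of 3 AP1/FUL, 0 of 3 SVP, 0 of 1 SOC1 and 0 of 2 AGL17 genes passed. MADS22 differed by -0.67 (adjusted p = 0.08, limma), MADS47, an SVP gene of brassinosteroid responses, by 0.00 and MADS27, an AGL17 gene, by -0.85.

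**Figure D1:**
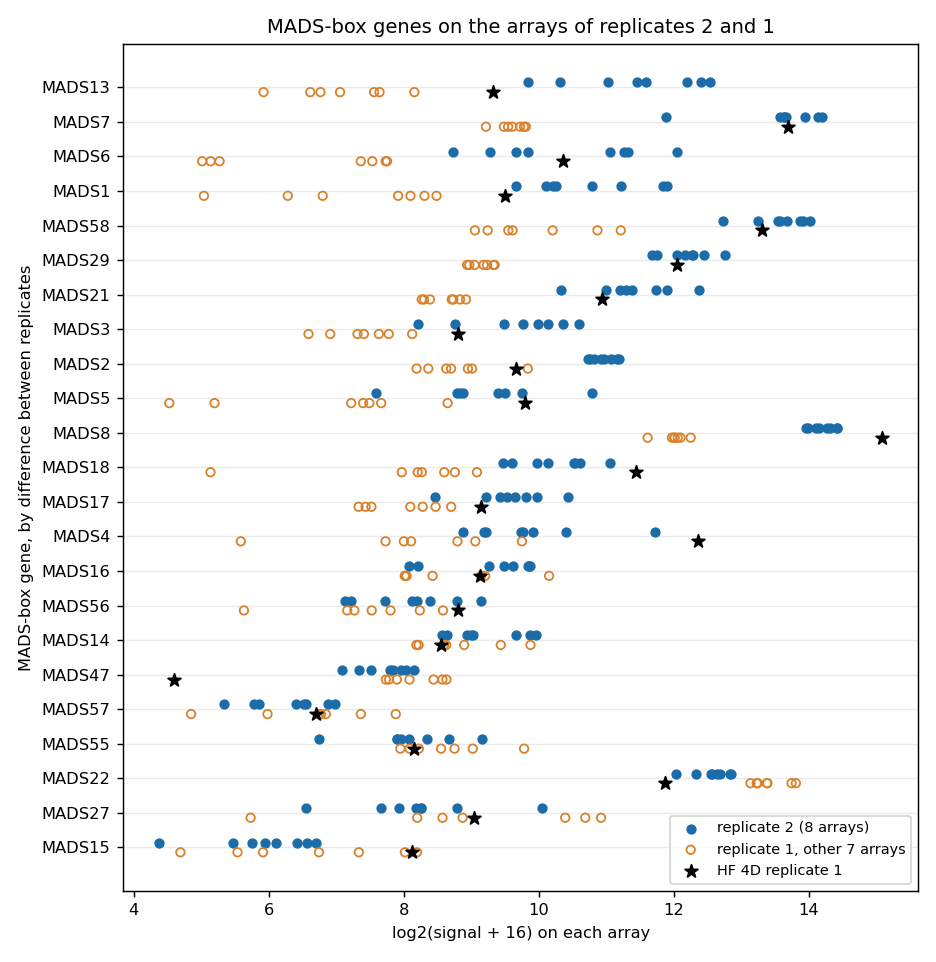
Level of each of the 23 tested MADS-box genes, as log2(signal + 16), on the 8 arrays of replicate 2 (filled), on HF 4D replicate 1 (star) and on the 7 other arrays of replicate 1 (open), with genes ordered by the difference between the replicate numbers. For MADS7, MADS29 and MADS8 the star stands with or above the filled points, while the open points lie 1.95 or more below the filled point of the same condition.

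In most of the 13 genes HF 4D replicate 1 stood apart from the other 7 arrays of its number. It was above all 7 in 12 of the 13 genes, and also in MADS4 and MADS56, which had not passed. The share of all probe sets that were above the other 7 on this array was not counted. Whether this order is particular to the MADS-box genes was therefore not tested. The median signal of HF 4D replicate 1 over its probe sets was 172, the highest of replicate 1, against 85.9 to 157 on the other 7. MADS7 was at 13.69 on it, against 9.22 to 9.81 on the other 7 and 11.89 to 14.20 on replicate 2. MADS29 was at 12.04 on it, against 8.94 to 9.35 on the other 7 and 11.68 to 12.76 on replicate 2. MADS5 was at 9.80 on it, within the 7.60 to 10.79 of replicate 2, MADS8 at 15.09 was above the 13.96 to 14.42 of replicate 2, and MADS1 at 9.51 was below the 9.66 to 11.90 of replicate 2. MADS47 and MADS22 went the other way, MADS47 with 4.59 against 7.74 to 8.63 on the other 7, and MADS22 with 11.87 against 13.14 to 13.81. Without HF 4D replicate 1, 14 of 23 genes were higher on replicate 2 and 1, MADS22, was lower (-0.87, adjusted p = 0.0158, limma), beside 13.2% and 20.3% of all probe sets. Of the 23 tested genes 3 (MADS13, MADS1 and MADS2) were higher on replicate 2 without overlap of the arrays. Of all probe sets 2.08% were higher and 3.29% lower without overlap. Once HF 4D replicate 1 was left out, 11 of the 23 genes were higher on replicate 2 without overlap and 1 was lower (MADS22), beside 3.85% and 4.52% of all probe sets.

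Other features of the arrays moved with the replicate number. The median signal was 49.8 to 60.1 on replicate 2 and 85.9 to 172 on replicate 1, and a spiked control of the array (BioB-3) was at 368 to 816 and at 740 to 7666 in the same order. At an adjusted p under 0.05, 12.3% of all probe sets were higher on replicate 2 and 21.1% lower, and the marker lists were counted in the same way. Among these lists, 2 of the 3 genes of green pericarp and leaf were higher on replicate 2. These were RBCS, the small subunit of Rubisco, by 3.65 (adjusted p = 2.65e-04, limma) and RCA, Rubisco activase, by 2.56 (adjusted p = 0.00208, limma). The log2 summed signal of this list was 14.47 to 15.39 on replicate 2, 16.12 on HF 4D replicate 1 and 10.31 to 14.96 on the other 7 arrays. On HF 4D replicate 1 this sum was nearly all CAB2R, at 16.06, the gene of the list that did not pass (adjusted p = 0.058, limma). RBCS was at 10.57 on that array, against 10.70 to 12.55 on replicate 2 and 5.72 to 8.78 on the other 7. RCA was at 10.54 on it, against 9.88 to 12.25 and 6.00 to 10.11. Of 11 genes of endosperm storage and starch 0 were higher and 3 lower, and their log2 summed signal was 14.64 to 18.47 on replicate 2, 15.59 on HF 4D replicate 1 and 18.29 to 20.53 on the other 7. Of 4 embryo genes 0 were higher and 0 lower, and their log2 summed signal was 10.39 to 16.03 on replicate 2, 10.98 on HF 4D replicate 1 and 10.50 to 17.59 on the other 7. Of 3 tested anther and pollen genes 0 were higher and 2 lower, with log2 summed signals of 10.36 to 11.30 on replicate 2, 12.33 on HF 4D replicate 1 and 12.08 to 12.56 on the other 7. These sums were mostly 1 gene, MSP1, which averaged 11.43 over the arrays, while OSC4, OSC6 and TDR averaged 6.70, 6.22 and 4.83. The part of these tissues in the difference between the replicate numbers was not tested.

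**Figure D2:**
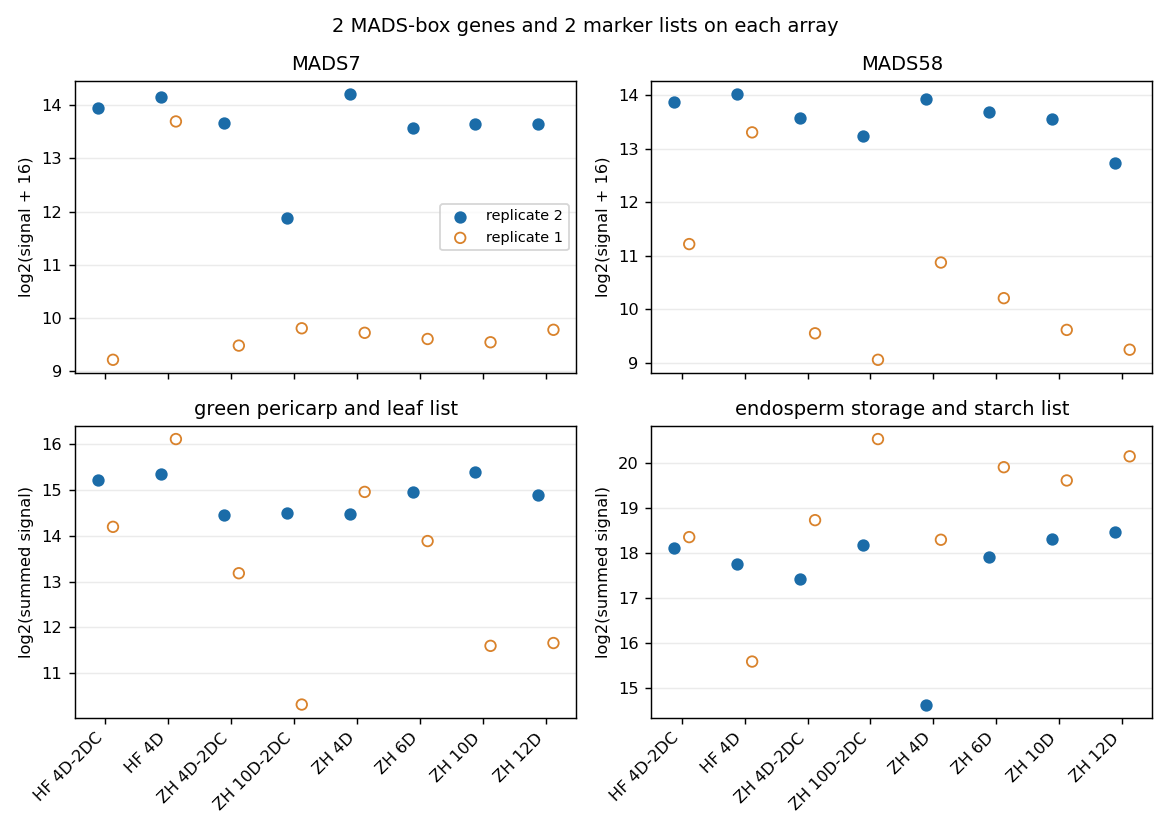
MADS7 and MADS58 as log2(signal + 16), and the log2 summed signal of the green pericarp and leaf list (3 genes) and of the endosperm storage and starch list (11 genes), on each array of the 8 conditions, with replicate 2 filled and replicate 1 open. For MADS7, HF 4D replicate 1 is the single array of replicate 1 above 9.81, and on the same array the green list is at 16.12 and the endosperm list at 15.59. The sum of the green list on that array is nearly all CAB2R, at 16.06 as log2(signal + 16).

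Seed age was compared within ZH at normal temperature, as ZH 10D and ZH 12D against ZH 4D and ZH 6D. MADS27 was higher in the older seeds. On replicate 1 it was at 5.73, 8.87, 10.39 and 10.69 at 4, 6, 10 and 12 DAF, and on replicate 2 at 6.56, 8.25, 7.93 and 10.05. The older seeds averaged 9.77 and the younger 7.35, with 1 older array (ZH 10D replicate 2) below 2 of the younger. The difference was 2.41 (SE 0.65, adjusted p = 0.115, where 1.15% of all probe sets passed, limma), and with the replicate number as a block it passed with an SE of 0.53 and an adjusted p of 0.0272 (4.06% of all probe sets passed in that fit), which was 0.0513 when the block was joined with quantile normalization. Within the replicates the difference was 3.24 and 1.59. The call with the block was lost when ZH 4D replicate 1, ZH 6D replicate 1, ZH 6D replicate 2, ZH 10D replicate 1, ZH 12D replicate 1 or ZH 12D replicate 2 was left out, with a difference of 1.95 and an adjusted p of 0.134 without ZH 10D replicate 1. A second probe set of MADS27 differed by 2.00 (adjusted p = 0.251, and 0.111 with the block, limma).

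**Figure D3:**
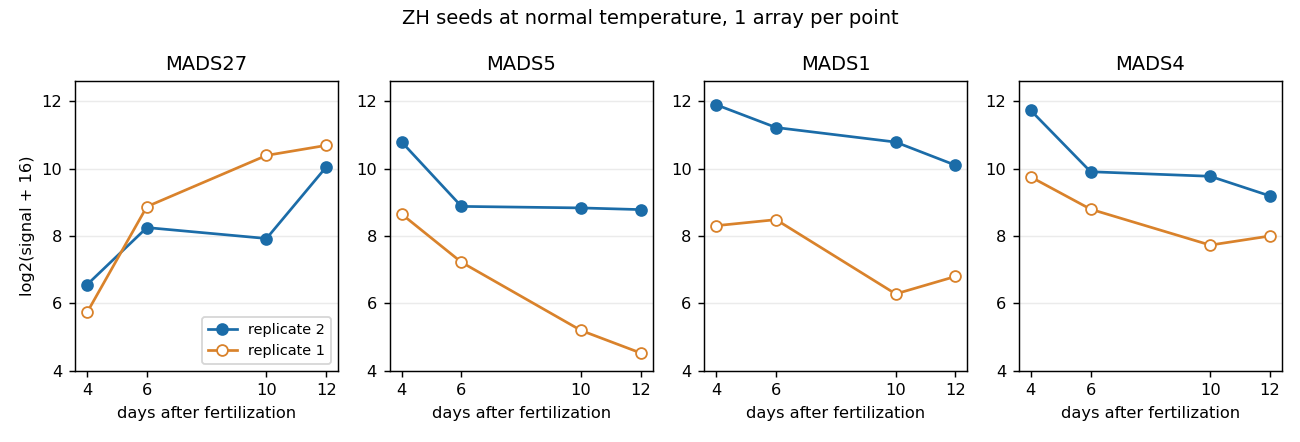
MADS27, MADS5, MADS1 and MADS4 as log2(signal + 16) in ZH seeds at 4, 6, 10 and 12 DAF at normal temperature, 1 array per point, with replicate 2 filled and replicate 1 open. MADS27 stands at 5.73 and 6.56 at 4 DAF and at 10.69 and 10.05 at 12 DAF, and MADS5 at 8.65 and 10.79 at 4 DAF and at 4.53 and 8.78 at 12 DAF.

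Among the flower identity genes, MADS5, MADS1 and MADS4 had the most negative differences with age. MADS5, a SEP gene, was at 8.65, 7.22, 5.20 and 4.53 on replicate 1 from 4 to 12 DAF, and at 10.79, 8.88, 8.83 and 8.78 on replicate 2. It was highest at 4 DAF on each replicate, with a difference of -2.05 (SE 1.02, adjusted p = 0.476, and 0.0991 with the block, limma). MADS1 was at 8.31, 8.49, 6.28 and 6.80 on replicate 1 and at 11.90, 11.22, 10.79 and 10.10 on replicate 2, and differed by -1.48 (SE 1.41, adjusted p = 0.786, and 0.184 with the block, limma). MADS4, a PI gene, was at 9.75, 8.80, 7.73 and 8.0 on replicate 1 and at 11.73, 9.91, 9.77 and 9.19 on replicate 2, and differed by -1.37 (SE 0.81, adjusted p = 0.581, and 0.275 with the block, limma). Within each replicate number the older arrays of MADS5, MADS1 and MADS4 were all below the younger ones, for MADS5 on replicate 2 only narrowly (8.83 against 8.88). These genes were picked for their negative differences, and the share of all probe sets with this order was not counted.

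The study's methods set p under 0.05 and over 2-fold for low temperature and p under 0.001 for time courses. Those time courses were tested by ANOVA in embryo and endosperm, on other arrays than these. Here p under 0.001 was set on the limma contrast of older against younger whole seeds. The 2-fold threshold, below called the methods' threshold, was applied here to every comparison. With age 1 of 23 genes was higher in the older seeds at it and 0 were lower, beside 6.08% and 5.09% of all probe sets. With the block 1 was higher and 2, MADS5 and MADS1, were lower, beside 8.58% and 7.59%. At p under 0.001, 0 genes passed, beside 1.46% of all probe sets, and with the block 1, MADS27, did, beside 2.92%. The median difference was -0.14 for the 23 genes and -0.01 for all probe sets, and 8 genes were above 0 and 15 below. For 0 genes did the older and younger arrays not overlap, beside 4.88% and 5.03% of all probe sets. In the same comparison 3 of 4 embryo genes and 4 of 11 endosperm genes were higher at that threshold and 0 lower. The log2 summed signal of the embryo list was 15.77 to 16.83 in the older seeds and 10.39 to 13.28 in the younger, and that of the endosperm list 18.30 to 20.14 and 14.64 to 19.90 in the same order. The part of this change of tissue in the MADS27 difference was not tested.

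Low temperature from 4 DAF was compared at equal age, as ZH 4D-2DC against ZH 6D. At the methods' threshold 0 of 23 genes were higher and 0 lower (0.647% and 0.562% of all probe sets), and the smallest adjusted p was 1.0. With limma 0 had an unadjusted p under 0.05, with or without the block. The ovule gene MADS13 had the largest difference, at 8.16 and 12.41 in ZH 4D-2DC, against 6.61 and 11.02 in ZH 6D for replicates 1 and 2. It differed by 1.47 (SE 2.40), with 1.54 and 1.39 within the replicates. MADS55, an SVP gene, was at 9.02 and 9.17 in ZH 4D-2DC, against 7.95 and 7.90 in ZH 6D. These 2 pairs did not overlap, and the difference was 1.17 (SE 0.81), with 1.07 and 1.27 within the replicates. MADS57, an AGL17 gene of tillering, differed by 1.02 (SE 0.81) with opposite signs in the replicates, 2.52 and -0.47. MADS18 differed by 0.91 (SE 1.40), with 0.82 and 1.0 within the replicates. The cold-treated arrays were above the control arrays without overlap in 4 genes (MADS55, MADS14, MADS56 and MADS47) and below them in 1 (MADS27), beside 12.4% and 11.2% of all probe sets. The median was 0.19 for the 23 genes and 0.04 for all probe sets.

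Low temperature from 10 DAF was compared as ZH 10D-2DC against ZH 12D. At the methods' threshold 0 genes were higher and 0 lower (1.06% and 1.45% of all probe sets), the smallest adjusted p was 1.0, and with limma 0 had an unadjusted p under 0.05 with or without the block. MADS4 was at 5.59 and 8.88 in ZH 10D-2DC, against 8.0 and 9.19 in ZH 12D, a difference of -1.36 (SE 1.15). MADS13 was at 5.92 and 9.84 in ZH 10D-2DC, against 6.77 and 11.46 in ZH 12D, a difference of -1.23 (SE 2.40). Both genes were lower on each replicate, and in both the arrays of the 2 conditions overlapped. MADS18, an AP1/FUL gene, differed by -1.17 (SE 1.40), with -2.83 and 0.50 within the replicates, and MADS1 by -1.10 (SE 1.99), with -1.76 and -0.44. The arrays did not overlap in 2 genes, MADS16, the AP3 gene of lodicules and stamens, and MADS55, both higher in ZH 10D-2DC, and 0 were lower without overlap, beside 12.8% and 16.1% of all probe sets. The median was -0.34 for the 23 genes and -0.02 for all probe sets. The change of MADS13 with low temperature differed between the stages by -2.70 (10 DAF minus 4 DAF, SE 3.39, adjusted p = 1.0, limma), and no MADS-box gene passed in this contrast, where 0% of all probe sets did.

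**Figure D4:**
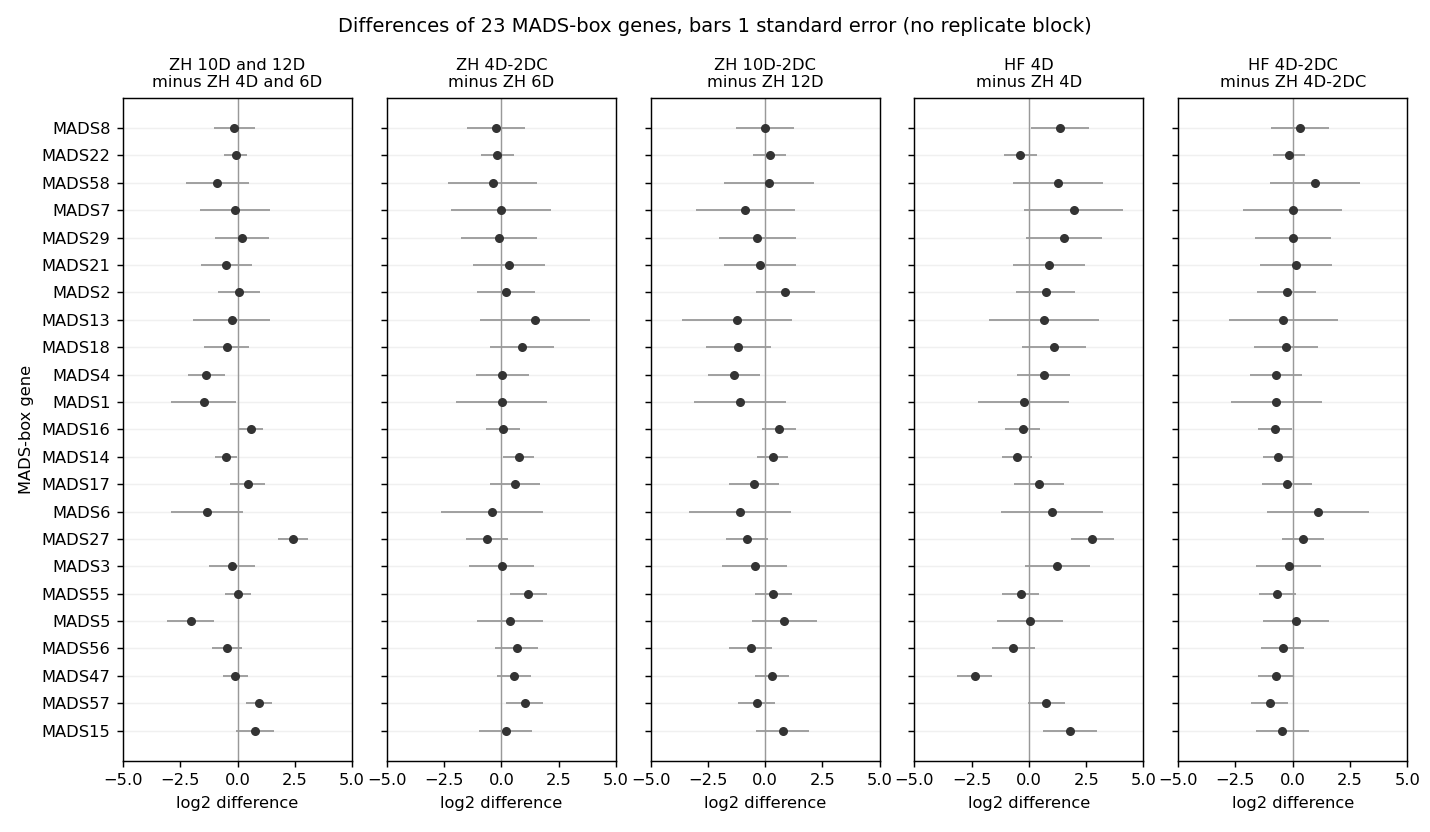
Log2 difference of each of the 23 tested MADS-box genes in the 5 main comparisons, with the condition named first minus the condition named second and bars of 1 standard error from the limma fit without a block. MADS27 lies at 2.41 with seed age and at 2.77 in HF 4D against ZH 4D, MADS47 at -2.36 in the same cultivar comparison, and most other bars cross 0.

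The cultivars at normal temperature were compared as HF 4D against ZH 4D. MADS27 was at 9.05 and 8.79 in HF 4D, against 5.73 and 6.56 in ZH 4D. The arrays did not overlap, and the difference was 2.77 (SE 0.92, adjusted p = 1.0, limma), with 3.32 and 2.23 within the replicates and 2.64 without HF 4D replicate 1, where the remaining HF 4D array was taken to vary like the other conditions. The second probe set of MADS27 was at 5.39 and 6.22 in HF 4D, against 4.35 and 6.07 in ZH 4D, and differed by 0.59. MADS47 was at 4.59 and 7.08 in HF 4D, against 8.44 and 7.96 in ZH 4D, and differed by -2.36 (SE 0.76, adjusted p = 1.0, limma). Its difference was -3.85 and -0.88 within the replicates, and -1.12 without HF 4D replicate 1, where it was no longer past the methods' threshold. These were the 1 gene higher and the 1 gene lower at the methods' threshold (0.903% and 0.973% of all probe sets).

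With the replicate block 3 genes were higher, MADS27, MADS7 and MADS29, and 1 was lower, beside 2.39% and 2.28%, and none passed after adjustment (smallest adjusted p = 0.712, limma, where 0.0146% of all probe sets passed). MADS7 was at 13.69 and 14.14 in HF 4D, against 9.72 and 14.20 in ZH 4D, so that the difference of 1.95 (SE 2.17) was 3.97 on replicate 1 and -0.06 on replicate 2. MADS29 was at 12.04 and 12.45 in HF 4D, against 9.23 and 12.17 in ZH 4D, with 2.81 and 0.27 within the replicates. MADS8 was at 15.09 and 14.31 in HF 4D, against 12.25 and 14.42 in ZH 4D, with 2.84 and -0.11. MADS15, an AP1/FUL gene, was at 8.12 and 6.57 in HF 4D, against 4.69 and 6.43 in ZH 4D, with 3.43 and 0.15. A second tested probe set of MADS15 was at 8.03 and 4.37 in HF 4D, against 5.07 and 7.11 in ZH 4D, with overlapping arrays and a difference of 0.11. For these 4 genes, each on its probe set of highest mean, the cultivars were apart on replicate 1 and within 0.27 of each other on replicate 2. The median over the 23 genes was 0.72, against -0.02 for all probe sets, with 2.22 within replicate 1, -0.51 within replicate 2 and 0.89 without HF 4D replicate 1. The arrays did not overlap in 2 genes that were higher in HF 4D, MADS27 and MADS15, and 1 that was lower, MADS47, beside 7.24% and 9.82% of all probe sets.

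**Figure D5:**
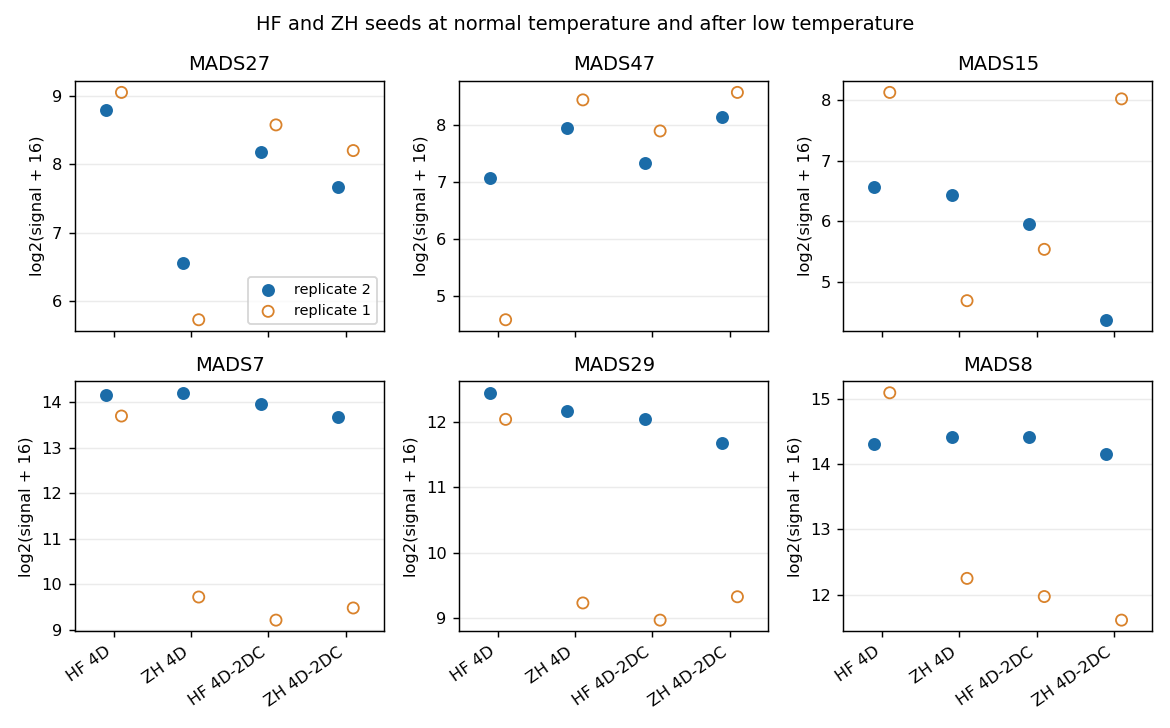
MADS27, MADS47, MADS15, MADS7, MADS29 and MADS8 as log2(signal + 16) in HF 4D, ZH 4D, HF 4D-2DC and ZH 4D-2DC, 1 array per point, with replicate 2 filled and replicate 1 open and a vertical scale of its own for each gene. MADS27 is at 9.05 and 8.79 in HF 4D and 5.73 and 6.56 in ZH 4D, whereas for MADS7, MADS29 and MADS8 the cultivars are apart on replicate 1 of the 4 DAF seeds and close on replicate 2.

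After low temperature the cultivars were compared as HF 4D-2DC against ZH 4D-2DC. At the methods' threshold 0 genes were higher and 0 lower (0.306% and 0.99% of all probe sets), the smallest adjusted p was 1.0, and with limma 0 had an unadjusted p under 0.05 with or without the block. MADS6, an AGL6 gene also known in endosperm, was at 7.53 and 11.26 in HF 4D-2DC, against 5.27 and 11.33 in ZH 4D-2DC, a difference of 1.10 (SE 2.22) that came from replicate 1. MADS57 was at 5.98 and 5.78 in HF 4D-2DC, against 7.36 and 6.41 in ZH 4D-2DC, a difference of -1.01 (SE 0.81). MADS58 differed by 0.98 (SE 1.96), with 1.67 and 0.29 within the replicates, and MADS16 by -0.79 (SE 0.74), with -0.41 and -1.18. In 5 genes, MADS16, MADS14, MADS55, MADS47 and MADS57, the HF 4D-2DC arrays were below those of ZH 4D-2DC without overlap, and in 0 above them, beside 13% and 6.98% of all probe sets. MADS27 was at 8.57 and 8.18 in HF 4D-2DC, against 8.20 and 7.67 in ZH 4D-2DC. The median was -0.27 for the 23 genes and -0.10 for all probe sets.

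Within a cultivar the seeds after low temperature were also 2 days older than the 4 DAF seeds, so that age and treatment cannot be told apart in HF. These comparisons share the 4 DAF arrays with the one between cultivars. MADS4 was at 8.11 and 9.22 in HF 4D-2DC, against 12.36 and 10.41 in HF 4D, a difference of -2.72 (SE 1.15, adjusted p = 1.0, limma). MADS47 was at 7.90 and 7.34 in HF 4D-2DC, against 4.59 and 7.08 in HF 4D, a difference of 1.78 (SE 0.76, adjusted p = 1.0, limma). These were the 1 gene lower and the 1 gene higher at the methods' threshold, beside 1.64% and 0.647% of all probe sets. Both differences were larger on replicate 1, where MADS4 differed by -4.25 and MADS47 by 3.31, than on replicate 2, with -1.19 and 0.26. With the block MADS7 (-2.33) and MADS29 (-1.74) were lower as well, so that 3 genes were lower at that threshold and 1 higher, beside 4.62% and 1.64%. The difference of MADS7 was -4.47 on replicate 1, which holds the HF 4D array that stood apart, and -0.20 on replicate 2, and that of MADS29 was -3.07 and -0.40. In ZH 4D-2DC against ZH 4D 0 genes were higher and 0 lower (0.967% and 0.778% of all probe sets). With the block 1, MADS27, was higher, beside 2.16%, with 8.20 and 7.67 in ZH 4D-2DC, against 5.73 and 6.56 in ZH 4D (1.79, adjusted p = 1.0, limma). The change of MADS27 over the 2 days of low temperature differed between HF and ZH by -2.33 (SE 1.30, adjusted p = 1.0, limma).

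Some members had like patterns over the conditions. Over the 8 condition means the genes most like MADS29 were MADS8 (Pearson r = 0.96), MADS7 (r = 0.95) and MADS3 (r = 0.80). On replicate 1 alone these were 0.97, 0.99 and 0.75, and on replicate 2, which lacks the HF 4D array that stood apart, they were 0.31, 0.45 and 0.11. The genes most like MADS6 were MADS21 (r = 0.94), MADS58 (r = 0.91) and MADS4 (r = 0.87), with 0.67, 0.84 and 0.78 on replicate 1 and 0.80, 0.82 and 0.68 on replicate 2. The likeness to MADS6 was thus present on each replicate number. On replicate 1 MADS6 was at 10.36 on HF 4D and at 5.01 to 7.75 on the other 7 arrays. MADS21, MADS58 and MADS4 were also highest on HF 4D there, and the part of this array in the coefficients of replicate 1 was not tested. The points share arrays across genes, and the coefficients are descriptions over 8 conditions.

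Other genes of flowering and of chromatin were followed through a list of which 14 genes were matched and 12 tested. DROOPING LEAF (DL), a carpel identity gene next to MADS1 in the gene order, was at 7.89, 8.08, 4.75 and 7.85 on replicate 1 from 4 to 12 DAF and at 9.71, 9.07, 6.93 and 6.58 on replicate 2. It differed by -2.16 with age (adjusted p = 0.210, and 0.0617 with the block, limma). NF-YB1, an endosperm regulator, was at 11.04, 12.73, 13.06 and 13.85 on replicate 1 and at 10.75, 14.33, 14.96 and 14.69 on replicate 2. It differed by 1.93 with age (adjusted p = 0.378, and 0.0992 with the block, limma). These were the 1 gene lower and the 1 gene higher of the 12 with age at p under 0.05 and over 2-fold, beside 5.09% and 6.08% of all probe sets. With low temperature from 4 DAF 1 gene of the list, HD3A, a florigen gene, was higher by 1.70 and 0 were lower, beside 0.647% and 0.562% of all probe sets. In the other 3 main comparisons 0 passed in either direction. Between the replicate numbers 1 of the 12, NF-YB1, was higher on replicate 2 and 3 were lower at an adjusted p under 0.05. Over all tested probe sets 12.3% were higher and 21.1% lower, and of the 23 MADS-box genes 13 were higher and 0 lower.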

How the data were processed

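Total RNA of whole rice seeds was hybridized to 16 Affymetrix arrays. The deposited values were linear signal intensities that the authors made with MAS5, per the labels, with a 2% trimmed mean of 500 on each array. GC-RMA is named in the methods of the paper instead. The depth of an array is not a count, and the number of arrays limits the precision. Probe sets were named through the platform annotation, which pairs 22436 with 1 gene, 95 with several and 34850 with none, and through synonyms in RefSeq (assembly ASM3414082v1). Coordinates of RefSeq were used only for the order of neighbouring genes. The 187 control probe sets were removed, and log2(signal + 16) of 34331 probe sets was fitted with limma 3.58.1 in R 4.3.3, with 1 coefficient per condition and a spread shared by all 16 arrays. P-values are two-sided and adjusted by Benjamini-Hochberg over all tested probe sets. The fit was tested on simulated data. Same-numbered replicates deviated together in all 28 pairs of conditions (correlations 0.216 to 0.638), so fits with the replicate number as a block are given where they change a call. Genes named are the 8 of highest mean, the 4 of largest difference in each of the 5 main comparisons, and those past a threshold; genes of a count of 5 or fewer, and those named for the replicate difference or HF 4D replicate 1, were chosen after their values were seen. Members and lists were chosen with earlier results of these data known. Alternatives were other pseudocounts (4 and 64), no filter or the 60th percentile, quantile normalization, the block, other probe sets and leaving out each array. The difference between the replicate numbers, its settings, and the fits with a block that leave out an array were added after seeing the data.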

Additional observations from a re-analysis of the deposited data

How the results depend on the processing

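Apart from leaving out an array, no result changed direction, and 131 summary values and 170 values of single genes kept direction and side of the threshold. The exceptions were 8 counts and 7 values of single genes. With the replicate block, 2 MADS-box genes, MADS5 (-2.05) and MADS1 (-1.48), were lower with age in place of 0 (2 also with quantile normalization, -2.10 and -1.79), and 3 were higher in HF 4D in place of 1, MADS7 (1.95) among them. At p under 0.001, a setting chosen after seeing the data, 0 were higher with age in place of 1. With the block and quantile normalization 1, MADS13, was higher with low temperature from 4 DAF in place of 0 (1.74). Without a filter 1 was higher and 1 lower in HF 4D-2DC in place of 0 and 0. With the mean of all probe sets of a gene 0 were higher in HF 4D in place of 1, MADS27 differing by 1.68. For the counts with quantile normalization, without a filter or with the mean of all probe sets of a gene, the share of all probe sets is not given. The cause of these exceptions was not tested.

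Leaving out 1 array in turn moved the medians over the genes to -0.69 to 0.40 with age, -0.51 to 1.23 with low temperature from 4 DAF, -1.28 to 0.48 from 10 DAF, -0.65 to 2.01 in HF 4D and -1.04 to 0.68 in HF 4D-2DC. Counts of genes past the threshold are not given for these settings, because a condition then keeps 1 array. Signs turned for MADS6 (-1.93 to 4.13) and MADS58 (-1.04 to 2.99) in HF 4D-2DC, for MADS7 in HF 4D (-0.28 to 4.19), for MADS13 from 4 DAF (-0.74 to 3.67), and from 10 DAF for MADS4 (-3.01 to 0.28), MADS13 (-3.58 to 1.11), MADS18 (-3.59 to 1.25) and MADS1 (-3.41 to 1.21). Leaving out an array leaves the replicate numbers uneven between the conditions. MADS27 with age ran from 1.80 to 3.03, with adjusted p from 0.0272 to 0.377 over all alternatives (limma). With the block and an array left out together it was 0.0183 to 0.134. The 8 genes under the filter had no test except in the setting without a filter, and 2 arrays per condition limit all the differences.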
